A study of Danio rerio with 6 samples.

Results

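Fibroblast growth factor (Fgf) signalling was examined through 10 zebrafish genes taken by gene symbol, the ligand genes fgf3, fgf8a, fgf10a and fgf24 and the target genes spry2, spry4, dusp6, il17rd, etv4 and etv5b. They were 10 of the 7356 genes with a tested probe set, and 13 probe sets stood for them: 3 for spry2, 2 for dusp6 and 1 for each of the others. The arrays compared whole embryos at 19 hours post fertilization, grown at 28.5 degrees Celsius. One group was mutant for the hanS6 allele of hand2, a transcription factor gene of the lateral plate mesoderm, and the other was wild-type siblings from the same kind of heterozygous cross. Both groups carried the reporter Tg(myl7:egfp), whose heart expression was used to pick out the mutants. Each of the 3 arrays per group held RNA of 10 to 25 pooled embryos, and siblings told apart by heart phenotype can include heterozygotes. In pooled whole embryos, fewer cells of a type and less RNA per cell cannot be told apart.

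Fgf ligands are secreted proteins that bind receptor tyrosine kinases together with heparan sulphate and drive the Ras, Raf and Erk kinase cascade. The cascade switches on a common set of targets in most tissues that receive the signal. Among them are Sprouty proteins, the Erk phosphatase Dusp6 and the membrane protein Il17rd (Sef), all of which dampen the pathway, and the Ets transcription factors Etv4 (Pea3) and Etv5b (Erm), which carry its output to the genome. In zebrafish embryos of this age Fgf signals act in the midbrain-hindbrain boundary, hindbrain and otic region, tailbud, heart field, pharyngeal pouches and pectoral fin field.

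Values were MAS5 signals on a linear scale, and differences were fitted as mutant minus sibling on log2(signal + 16), an offset that damps noise near background and shrinks the differences of dim genes. The median signal was 152 to 177 on the 6 arrays. The array carries 17 Tag controls. A signal no higher than the brightest of them on the same array was taken as background, a level of 57.0 to 122. The level of 122 was that of wild-type replicate 2, and the other arrays had 57.0 to 80.2. Counts of arrays above background therefore depend in part on that array. Arrays are called sibling 1 to 3 and mutant 1 to 3 by their replicate number. The hand2 signal was 349, 448 and 292 in siblings and 52.8, 50.9 and 45.1 in mutants, with every mutant array at background. Its adjusted p was 0.0051 (limma with Benjamini-Hochberg adjustment), and the signal was lower in the mutant at every replicate number. Of 11626 tested probe sets, 0.0086% passed an adjusted p of 0.05, namely hand2 alone. With sibling 1 or sibling 2 left out 0 passed, and with mutant 3 left out 20 did. Of 36 tested regional marker genes, 29 were above background on all 6 arrays. The dimmest genes had been left out before this count, so it cannot check the whole embryo label.

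No Fgf ligand or target gene passed the test between mutants and siblings, and the 95% interval of every tested member probe set included a difference of 0. Of 12 tested member probe sets, 0 passed in limma, with adjusted p from 0.942 to 0.999, and 0 passed with the replicate number as a block, with adjusted p from 0.659 to 0.998. At an unadjusted p under 0.05 there were 0 of the 12, against 3.03% of all tested probe sets, or 0 against 7.41% with the block. That count changed with some arrays left out. Without mutant 1 it was 1 ligand gene, against 262 probe sets over the array. Without sibling 1 or without mutant 3 it was 1 target gene, against 871 and 1272 probe sets. The other member probe set, the dimmest of spry2, was below the filter on low signal and was not tested. The arrays of the genotypes did not overlap for 1 member probe set, the brighter one of dusp6, which was higher in mutants. Over all tested probe sets 3.71% separated in that direction.

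**Figure D1:**
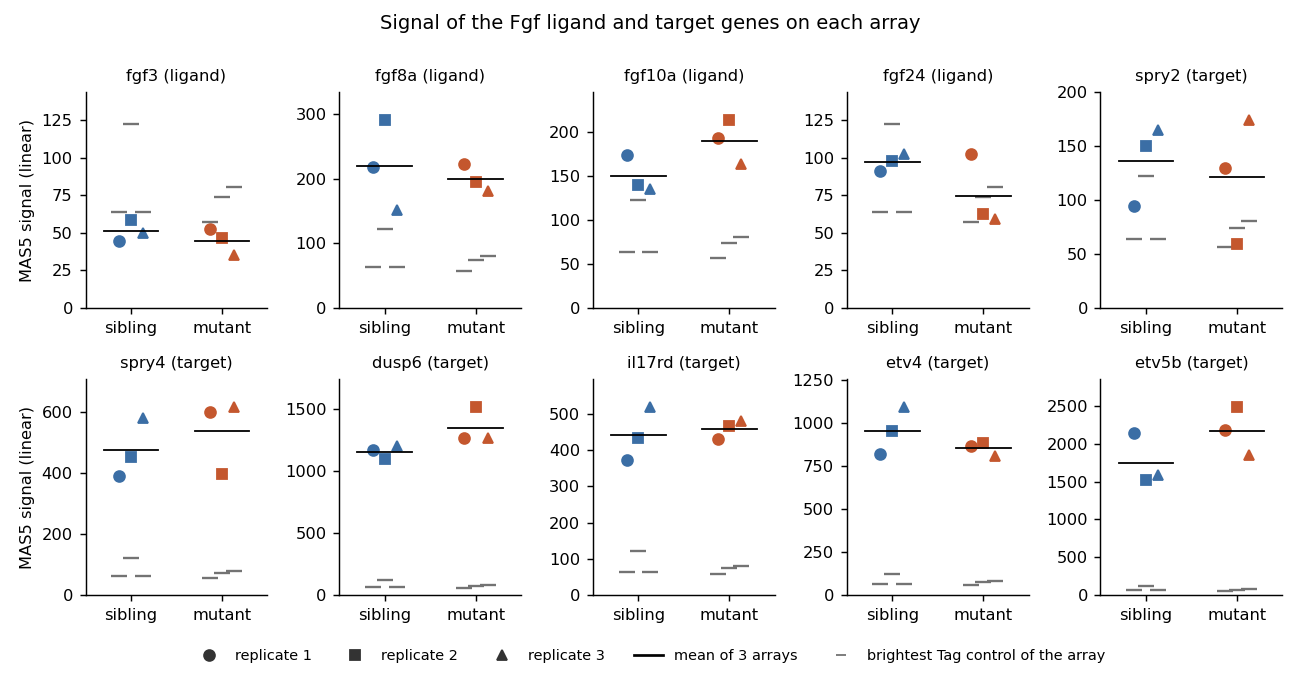
MAS5 signal (linear, vertical axis from 0) of each gene on each array, for siblings and mutants, with the probe set of highest mean signal standing for its gene. Points are arrays, shapes are replicate numbers, black lines are means of 3 arrays and grey dashes mark the brightest Tag control of each array. The mutant points lie above all sibling points for dusp6 only, and all fgf3 points lie below the dash of their array.

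Among the ligands, fgf8a, which acts at the midbrain-hindbrain boundary, in the heart field and in the tailbud, had a signal of 218, 290.3 and 151 in siblings and 223, 195 and 180.3 in mutants. The mutant arrays all lay within the sibling range. Its log2 difference was -0.09 ± 0.24 (standard error, adjusted p = 0.977), and the 95% interval of the mutant-to-sibling ratio was 0.646 to 1.36. Sibling 2 was the highest array, and without it the difference was 0.12, on the other side of 0.

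The ligand gene fgf10a, which in the fin field is expressed in the mesenchyme that builds the bud, read 174, 139 and 136 in siblings and 193, 213 and 163 in mutants. It was higher in the mutant at all 3 replicate numbers, by 0.14, 0.56 and 0.24 on the log2 scale. The groups still overlapped, because sibling 1 exceeded mutant 3. The fitted difference was 0.32 ± 0.20 (adjusted p = 0.942), with a ratio interval of 0.918 to 1.69. It lay between 0.23 and 0.42 with any 1 array left out.

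The signal of fgf24, a ligand gene needed for the start of the pectoral fin bud, was 91.0, 97.6 and 102 in siblings and 103, 62.3 and 59.3 in mutants. The sibling arrays lay close together, whereas mutant 1 stood at the top of all 6 and the other mutant arrays at the bottom. By the Tag controls, 2 sibling arrays and 1 mutant array were above background, so part of this reading lies in the range where signal and background meet. The fitted difference of -0.35 ± 0.22 did not pass (adjusted p = 0.942). The ratio interval was 0.556 to 1.11. Per replicate number the differences were 0.15, -0.54 and -0.65, so number 1 ran against the others. With mutant 1 left out the fgf24 difference was -0.56, and with mutant 3 left out it was -0.23.

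The ligand gene fgf3, a hindbrain and pharyngeal signal, was at background on all 6 arrays, with 44.8, 58.9 and 49.8 in siblings and 52.6, 46.4 and 35.1 in mutants. No fold is given for it. Its fitted difference of -0.15 ± 0.20 (adjusted p = 0.942) is a difference between background readings.

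Among the inhibitors of the pathway, dusp6 had the smallest spread between arrays of a genotype. Its brighter probe set read 1168, 1096 and 1199 in siblings and 1265, 1513 and 1265 in mutants. All 3 mutant arrays were above all 3 sibling arrays, by 0.11, 0.46 and 0.08 at the replicate numbers. The fitted difference was 0.22 ± 0.14 (adjusted p = 0.942), a ratio of 1.16 with an interval of 0.942 to 1.43. Its spread within a genotype was 0.11 on the log2 scale, and 14.8% of probe sets of like signal had a smaller spread. The dimmer probe set was at background on all sibling arrays and on 1 mutant array, with signals from 52.1 to 83.0. The reading of 83.0 was on sibling 2, where the background level was 122. The dimmer probe set differed by 0.12 ± 0.21. It gives no measure of size.

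Of the feedback inhibitors, the Sprouty genes varied most between arrays. For spry4 the signal was 392, 453 and 581 in siblings and 602, 398 and 617 in mutants, 2 mutant arrays above the sibling range and mutant 2 near its lower end. The difference was 0.17 ± 0.22 (adjusted p = 0.942), with a ratio interval of 0.802 to 1.57, and it ran from 0.043 with sibling 1 left out to 0.37 with mutant 2 left out. For spry2, the brightest probe set read 94.4, 150.2 and 165 in siblings and 130, 58.9 and 174 in mutants. Mutant 2 was the lowest array and at background, while mutant 3 was the highest. The fitted difference of -0.23 ± 0.34 (adjusted p = 0.948, ratio interval 0.502 to 1.46) was 0.16 without mutant 2. A second spry2 probe set also had its lowest reading on mutant 2, 64.9 against 92.6 to 163 on the other arrays, and differed by -0.0031 ± 0.30. The within-genotype spread of the first was 0.56, and 94.2% of probe sets of like signal had a smaller one. The third read 10.9 to 14.5, at background throughout.

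The gene il17rd, whose product holds back Fgf receptor signalling at the membrane, read 373, 433 and 518 in siblings and 430.2, 466 and 479.5 in mutants. The mutant arrays lay inside the sibling range. The difference was 0.06 ± 0.17 (adjusted p = 0.978), with a ratio interval of 0.803 to 1.36. With every array set to a common median the sign turned, to -0.016.

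The fitted differences of the Ets factor genes had opposite signs, and both 95% intervals included 0. For etv5b the signal was 2143, 1517 and 1591 in siblings and 2183, 2484 and 1854 in mutants. It was higher in the mutant at all 3 replicate numbers (0.03, 0.71 and 0.22), but sibling 1 exceeded mutant 3. The difference of 0.32 ± 0.17 had the smallest p of the members and did not pass (adjusted p = 0.942). Its ratio was 1.25, with an interval of 0.952 to 1.63. For etv4 the signal was 818, 954 and 1089.8 in siblings and 862, 883 and 809 in mutants. The mutant arrays lay close together near the low end of the siblings, and mutant 3 was below all of them. The difference was -0.15 ± 0.15 (adjusted p = 0.942), with a ratio interval of 0.713 to 1.13. It was -0.053 with sibling 3 left out and -0.26 with sibling 1 left out.

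**Figure D2:**
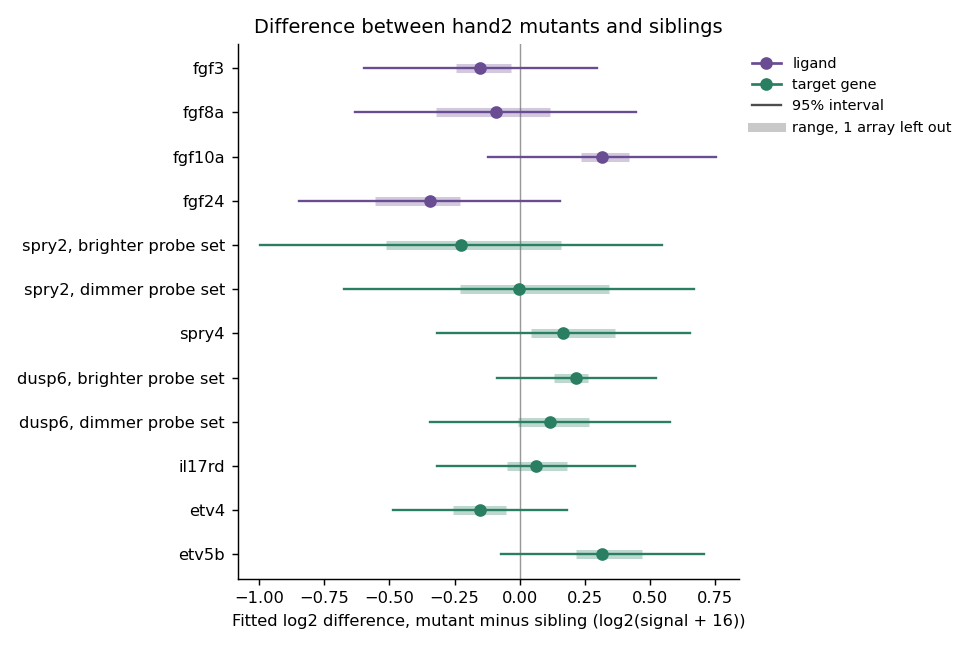
Fitted log2 difference, mutant minus sibling, of the 12 tested member probe sets (points), with the 95% interval (thin line) and the range when 1 array is left out (pale bar). Every interval includes 0, and the widest belong to the spry2 probe sets.

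The 95% intervals hold for 1 probe set at a time and were not adjusted for the 11626 tests. They are therefore not limits of detection, and the size of change that the adjusted test could have missed was not tested. For etv4, il17rd, fgf8a and the brighter dusp6 probe set, mutant-to-sibling ratios below 0.646 or above 1.43 lay outside the 95% interval. For the brightest spry2 probe set the interval ran down to 0.502, so a ratio close to that value lay within it. The median absolute log2 difference over all tested probe sets was 0.15, and 16.7% of them had a larger difference than etv5b.

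When ligands were compared with targets, 1 of 4 ligand genes and 4 of 6 target genes had a higher fitted value in the mutant, against 53.8% of all tested probe sets. The median log2 difference was -0.12 for the ligands, 0.12 for the targets and 0.020 for all tested probe sets. Neither the medians nor their gap of 0.24 were tested, because the genes were picked with earlier results known. The ligand median lies between fgf3 (-0.15) and fgf8a (-0.09), and fgf3 was at background on all 6 arrays. The ligand median and the gap therefore rest in part on background readings. The ligand counts also include fgf3, and fgf24, which was above background on only 2 sibling arrays and 1 mutant array. The gap was 0.010, 0.40 and 0.14 at replicate numbers 1, 2 and 3, so at number 1 ligands and targets stood at almost the same median. At number 1 all 4 ligands and all 6 targets were higher in the mutant. At number 2 it was 1 ligand and 3 targets, and at number 3 it was 2 ligands and 4 targets. Of all 11626 tested probe sets, 5881, 5926 and 6233 were higher at numbers 1, 2 and 3. The counts per number were not tested. The gap was 0.076 with sibling 2 or mutant 3 left out, 0.15 with sibling 1 left out and 0.45 with sibling 3 left out. For the targets the median became -0.0023 when sibling 1 was left out, 0.046 when mutant 3 was and 0.21 when sibling 3 was. With every array set to a common median it was 0.036, with 3 of 6 targets higher. For the ligands it became 0.023 when sibling 2 was left out, -0.030 for mutant 3, -0.21 for mutant 1 and -0.24 for sibling 3, and it was -0.20 with a common median.

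**Figure D3:**
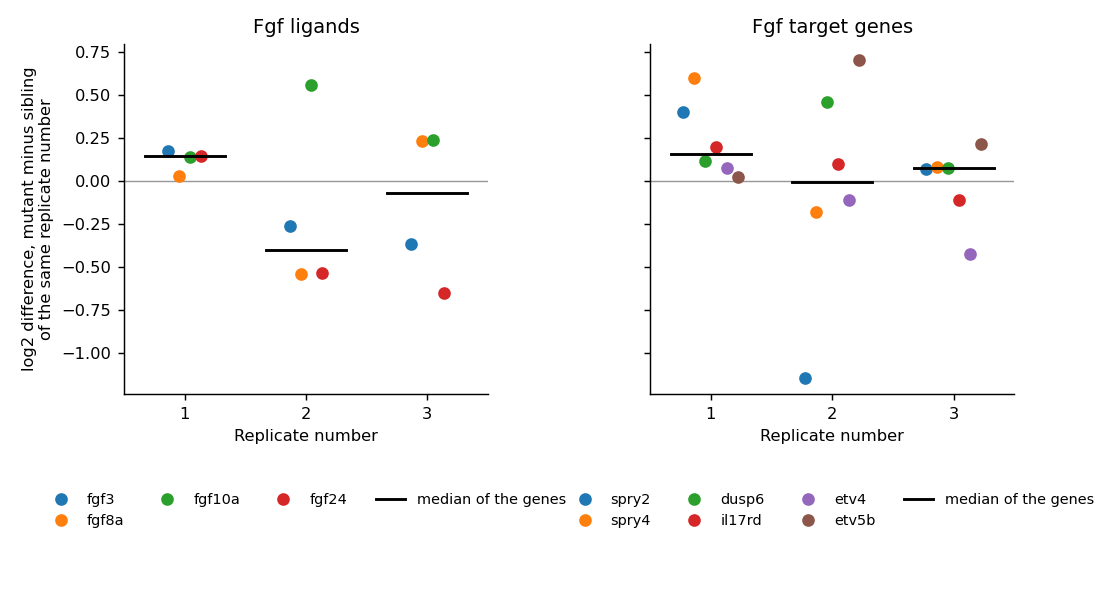
Log2 difference between the mutant and the sibling array of the same replicate number, for the 4 ligand genes (left) and the 6 target genes (right), with the median of each group as a black line. The genes lie close together at number 1 for the ligands and spread from -1.15 for spry2 to 0.71 for etv5b at number 2 for the targets.

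The targets had their highest and lowest readings on different arrays. Mutant 2 was the highest array for dusp6 and etv5b, and for the ligand fgf10a, but the lowest for spry2. Sibling 1 was lowest for spry4 and il17rd, and sibling 2 for dusp6 and etv5b. The mean centred log2 profile of the 6 targets was compared with each target by the root mean square difference over the 6 arrays. It was 0.093 for il17rd, 0.15 for etv4, 0.17 for spry4, 0.18 for dusp6, 0.31 for etv5b and 0.40 for spry2, although each of them is part of that mean, against a median of 0.24 over all tested probe sets. The share of tested probe sets nearer to that mean than the target itself was 1.73% for il17rd, 14.1% for etv4, 20.0% for spry4 and 25.6% for dusp6, but 70.4% for etv5b and 86.0% for spry2. The named genes nearest to it were chchd10 (0.024), chchd1 (0.039), atad3 (0.042) and mmp11b (0.044), and none of them was an Fgf target on the lists used. The mean profile ran only from -0.16 on sibling 1 to 0.13 on sibling 3, so genes that varied little also lay near it. Nearness to it therefore cannot show whether a gene responds to Fgf. For chchd10, which encodes a mitochondrial protein, the signal was 1008, 1075 and 1233 in siblings and 1229, 1042 and 1207 in mutants.

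Other genes of the pathway were counted on 4 lists, and none passed after adjustment, with or without the block. The share to set beside the direction counts of these lists is 53.8%, the share of all tested probe sets with a higher fitted value. The direction counts were not tested. Of the other Fgf-responsive and Erk-responsive genes, 15 of 20 tested had a higher fitted value in the mutant, with a median log2 difference of 0.17 against 0.020 for all tested probe sets. The count was 12 to 15 with any 1 array left out, while leaving out sibling 3 gave a median of 0.090, sibling 1 gave 0.27 and mutant 3 gave 0.26. With a common median the count was 13 and the median 0.094. At replicate numbers 1, 2 and 3 the medians were 0.036, 0.30 and 0.089. At an unadjusted p under 0.05 there was 1 of the 20, against 3.03% of all tested probe sets, or 2 with the block, against 7.41%.

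That gene was etv5a, the paralogue of etv5b, whose brighter probe set read 639, 585 and 508 in siblings and 869, 706 and 688 in mutants. All mutant arrays were above all sibling arrays. Its difference was 0.37 ± 0.16 (limma, adjusted p = 0.942). The second etv5a probe set differed by 0.032 ± 0.25, with 203, 213 and 176 in siblings and 299, 148 and 184 in mutants. Its mutant arrays overlapped the siblings, and the difference between the probe sets was not tested.

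The Erk phosphatase gene dusp7 was also separate, with 326, 300 and 253 in siblings and 394, 379.5 and 347 in mutants (0.34 ± 0.17, adjusted p = 0.942), but its dimmer probe set differed by 0.095 ± 0.19. The immediate-early gene ier2a read 337, 367 and 356 in siblings and 341, 559.7 and 499.9 in mutants. Its difference was 0.36 ± 0.20. The proto-oncogene mycn differed by 0.32 ± 0.19 at its brighter probe set and by -0.0045 ± 0.20 at the other. Among the lower genes of the list, the cell cycle gene ccnd1 was lower on all mutant arrays, by 0.06 on the log2 scale, and was named after its values were seen. Over all 11626 tested probe sets, 431 separated with the mutant higher and 354 with the mutant lower. On the other pathway lists ext1a and hs6st1b were separate and higher, and map2k1 was separate and lower. These genes were named because their arrays did not overlap, after their values were seen.

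**Figure D4:**
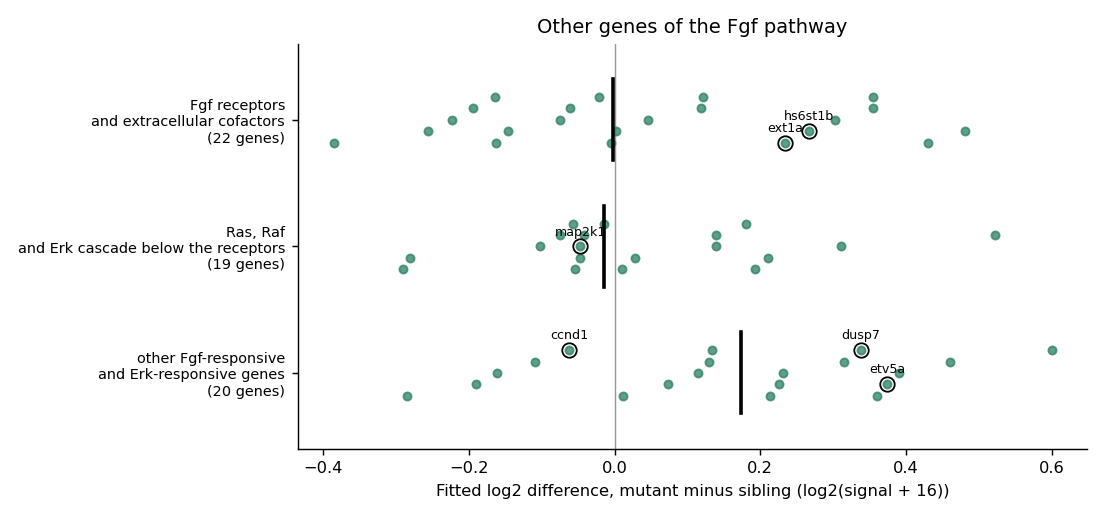
Fitted log2 difference, mutant minus sibling, of each tested gene on 3 pathway lists (points, staggered vertically for legibility), with the list median as a black bar. Rings and names mark genes whose mutant and sibling arrays did not overlap. The responsive genes centre on 0.17, and the other lists centre near 0.

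The receptors and extracellular cofactors were evenly divided, 11 of 22 higher, with a median of -0.0017 that ran from -0.023 to 0.050 with 1 array left out. The receptor gene fgfr2 read 1197, 1165 and 1187 in siblings and 1233, 1160 and 1163 in mutants, a difference of 0.0024 ± 0.12; it was named after its values were seen, as the receptor of least difference. The genes of smallest p were ndst2a, sulf1, sulf2a and fgfrl1a. The heparan sulphate enzyme gene ndst2a read 752, 829 and 849 in siblings and 576, 509.8 and 792 in mutants (-0.39 ± 0.18, adjusted p = 0.942), and its second probe set differed by -0.43 ± 0.23. The sulfatase genes, whose products trim heparan sulphate outside the cell, differed by 0.35 ± 0.18 for the brighter sulf1 probe set and 0.43 ± 0.24 for sulf2a. The dimmer sulf1 probe set differed by 0.17 ± 0.31 and was above background on only 1 array, a mutant one. The decoy receptor gene fgfrl1a read 333, 334 and 308 in siblings and 508, 470.4 and 309 in mutants (0.36 ± 0.20). For the brighter sulf1 probe set, sulf2a and fgfrl1a, mutants 1 and 2 were above all sibling arrays and mutant 3 was not. With 1 array left out the difference ran from 0.24 to 0.67 for sulf2a and from 0.22 to 0.57 for fgfrl1a.

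In the Ras, Raf and Erk cascade 9 of 19 genes had a higher fitted value, with a median of -0.015. Leaving out mutant 1 made it -0.12, and leaving out mutant 3 made it 0.044. The genes of smallest p were pik3r1, a regulatory subunit of phosphoinositide 3-kinase (0.31 ± 0.18), the phosphatase gene ptpn11b (0.52 ± 0.33), rps6ka3a, which encodes a kinase activated by Erk (-0.29 ± 0.21), and araf (0.21 ± 0.17). All had an adjusted p of 0.942. For ptpn11b, 2 sibling arrays and 1 mutant array were at background. With 1 array left out ptpn11b ran from 0.22 to 0.90, rps6ka3a from -0.44 to -0.082 and araf from 0.067 to 0.31.

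Of 27 further ligand genes listed, 6 were on the array and 1, fgf13a, passed the filter on low signal. It read 187, 215 and 152 in siblings and 167, 136 and 186 in mutants, a difference of -0.16 ± 0.21 (adjusted p = 0.942) that ran from -0.28 to -0.047 with 1 array left out. The ligand genes fgf2, fgf4, fgf6a, fgf8b and fgf18a were at background on all 6 arrays, and no fold is given for them.

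Marker genes of the regions where Fgf acts were read beside the members. The boundary marker cnpy1 is also on the receptor and cofactor list, and the pouch marker tbx1 is also on the responsive list. Each is counted on both of its lists. Of all tested probe sets 53.8% had a higher fitted value in the mutant, and the direction counts of the marker lists were not tested. At the midbrain-hindbrain boundary 7 of 9 tested markers had a lower fitted value, with a median of -0.13, which ran from -0.22 with sibling 1 left out to 0.045 with mutant 2 left out. The boundary factor gene pax5 read 172, 207 and 224 in siblings and 122, 104 and 136 in mutants (-0.67 ± 0.20), with no overlap, and was the 1 of 36 tested markers at an unadjusted p under 0.05, against 3.03% of all tested probe sets. The others of smallest p there were pax2a, higher on all mutant arrays (0.20 ± 0.16), cnpy1 (-0.22 ± 0.24) and en2b (-0.19 ± 0.24). With 1 array left out cnpy1 ran from -0.52 to -0.051 and en2b from -0.46 to -0.0061, both farthest from 0 with mutant 3 left out. The adjusted p of pax5 was 0.942. Of the 36 tested markers on all lists, each read at its brightest probe set, pax2a was separate and higher, and pax5 and otx1 were separate and lower. The arrays of the genotypes overlapped at a second tested otx1 probe set, which differed by -0.12 ± 0.22. Over all 11626 tested probe sets, 431 separated with the mutant higher and 354 with the mutant lower.

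Of the otic and hindbrain markers 5 of 7 were lower, with a median of -0.17. The placode genes dlx4b and dlx3b differed by -0.54 ± 0.25 and -0.61 ± 0.28, and epha4a and otx1 by 0.16 ± 0.16 and -0.14 ± 0.14. With the block 5 of the 36 tested markers on all lists had an unadjusted p under 0.05, against 7.41% of all tested probe sets, namely dlx4b, dlx3b, pax5, her1 and gata6. In the tailbud and presomitic mesoderm 5 of 8 were higher, with a median of 0.047, which ran from -0.022 with sibling 1 left out to 0.14 with mutant 1 left out. The segmentation gene her1 differed by 0.48 ± 0.24 and tbxta by 0.43 ± 0.29. For msgn1 the probe sets had opposite signs, -0.15 ± 0.20 at the brighter and 0.53 ± 0.33 at the dimmer. The dimmer one was above background on only 1 sibling array, and on 3 mutant arrays. For her1, 2 sibling arrays and 1 mutant array were at background, and for tbxta the difference was 0.13 with mutant 2 left out. For tbx16 the brighter probe set differed by 0.79 ± 0.50 and the other by 0.11 ± 0.19. The larger value rests on the low reading of sibling 2, and with that array left out it was 0.11.

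Of the heart field and pectoral fin markers, 8 were on the array and 4 passed the filter. These were gata6 (0.50 ± 0.30), gata5 (0.19 ± 0.30), sall4 (-0.15 ± 0.20) and meis2b (-0.024 ± 0.19). For sall4, 2 arrays of each genotype were at background. For gata6, read at 251, 277 and 143 in siblings and 311, 441 and 219 in mutants, each mutant array exceeded the sibling of its number, and the difference ran from 0.23 with sibling 3 left out to 0.74 with mutant 3 left out. In the pouch and arch list 5 of 8 were higher, with a median of 0.085 that ran from -0.081 to 0.13 with 1 array left out. The genes of smallest p were nkx2.3 (-0.33 ± 0.23), foxd3 (0.21 ± 0.19), crestin (0.19 ± 0.19) and alcama (-0.10 ± 0.13). None of the regional markers passed, and the part of these regions in the Fgf readings was not tested.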

How the data were processed

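The deposited values are linear hybridisation intensities of each probe set on each array. Per the submitters' processing notes, MAS5 was used to make them. Its version and a genome build are not given in these sources, and detection calls were not used. The mean after trimming 2% from each end was equal on all arrays to within rounding (500.1), so the arrays shared 1 global scaling, and none was added. Arrays have no depth; their number limits the precision.

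Of 15617 probe sets, 115 controls were removed. The lowest 25% of the other 15502 by mean log2(signal + 16), below about 46.1, were left out, which left 11626. Probe sets were named from the platform annotation, with 10795 having 1 symbol, 135 several and 4572 none. Symbols were updated by gene identifier to a RefSeq gene table of the assembly GRCz12tu, which matched 10711. The probe set of highest mean signal stood for a gene. The effect of genotype was estimated by limma, version 3.58.1, under R, version 4.3.3, using lmFit and then eBayes with trend. The test was 2-sided, with Benjamini-Hochberg adjustment over all 11626. The fit was checked on simulated data with independent noise and changes larger than any fitted member difference. That check therefore cannot show whether changes of the members' size would pass. An error after ± is the standard error of the fitted difference, with 3 arrays per group. Leaving out 1 array gives a group of 2.

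The members, lists and tests were chosen with earlier results of these data known, and the background rule from Tag controls comes from that earlier work. Genes named by rule were the members, hand2, up to 4 genes of smallest p on each list, and the 4 named genes nearest in profile to the targets. The genes ext1a, hs6st1b, map2k1, ccnd1, fgfr2 and junba were named after their values were seen. Further ligand genes were named as being at background, and tbx1 as a gene on both a marker list and a pathway list. Replicate numbers 1 to 3 occur in each genotype, and the labels do not say what they mark. Deviations from the genotype means correlated at 0.19, 0.12 and 0.48 between the arrays of number 1, 2 and 3. All exceeded 0.1, so the numbers were taken as pairs for the differences per replicate number and for the block. The main fit did not use the pairs. Their basis is weak, because wild-type replicate 1 correlated slightly more with mutant replicate 2 (0.20). Per the design text the crosses were independent. Alternatives were other offsets, filters, scalings, array weights, no trend, the block and each array left out.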

Additional observations from a re-analysis of the deposited data

How the results depend on the processing

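No member probe set passed under any of the 15 alternatives, and the replicate block changed no call: with it 1 probe set passed over the array, as without it, while the number at an unadjusted p under 0.05 went from 352 to 862. With the filter that removed the lowest 50%, hand2 was itself left out by its mean signal and could not pass, and 0 others passed. Leaving out 1 array gave 0 to 20. Signs turned for the dimmer tested spry2 probe set (0.012 with an offset of 64, 0.14 with array weights), for il17rd (-0.016 with a common median) and for meis2b (0.011 with array weights). With 1 array left out, differences ran from -0.32 to 0.12 for fgf8a, -0.51 to 0.16 and -0.23 to 0.34 for the spry2 probe sets, -0.0062 to 0.26 for the dimmer dusp6 probe set, -0.047 to 0.18 for il17rd, -0.33 to 0.052 for msgn1, -0.027 to 0.50 for gata5 and -0.21 to 0.093 for meis2b. The median of the targets ran from -0.0023 to 0.21, and the gap between targets and ligands from 0.076 to 0.45. The median of the receptor and cofactor list was -0.081 with a common median, a scaling that moved the median of all tested probe sets from 0.020 to -0.060. In all of these the cause was not tested. Signal near the Tag controls limits what can be said of fgf3, fgf24 and spry2.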

Other observations

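Among the genes counted above, readings of the immediate-early gene junba and of the tailbud marker tbx16 stood apart on 1 array each. These readings were picked out after their values were seen. On the list of responsive genes junba had a fitted difference of 0.60 ± 0.41, which ran from 0.046 to 0.98 with 1 array left out. The signal of junba, which encodes an AP-1 transcription factor, was 70.1, 80.2 and 89.4 in siblings and 69.8, 296 and 97.4 in mutants, so its highest reading came from mutant replicate 2. The brighter tbx16 probe set read 58.4 in wild-type replicate 2, below the Tag controls, and 230.3 to 379 on the other arrays, whereas the other probe set read 227 there and 156 to 216 elsewhere. In wild-type replicate 2 the tbx16 probe sets therefore ran opposite ways. The cause was not tested.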
